A study of Mus musculus with 6 samples.

Results

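The genes described are Prom1 and 8 other genes used as surface or nuclear markers of epithelial progenitor and tumour-initiating cells, namely Cd44, Cd24a, Epcam, Aldh1a1, Aldh1a3, Lgr5, Dclk1 and Sox9. They were taken as a named set and found through the array's single-gene probe sets, groups of short oligonucleotides that read 1 gene. All 9 had such a probe set, of 18194 genes that did, and all 9 passed the filter on low values, which left 11623 genes to test. Prom1 was chosen by its signal on these same arrays, which was higher in tumours of lactating mice, so its difference between the groups is described here without a test. The other 8 were added as known markers with that result in view. Transcripts were measured in 6 mouse tumours that had grown under the skin of the back after injection of KPC1199, a line of pancreatic ductal adenocarcinoma. The lactation group is 3 tumours from mice that were pregnant or had begun nursing at injection, and the control group is 3 tumours from mice of the same age. All were taken 20 days after injection, and each was read on its own Affymetrix array. Strain, litter and the share of pregnant against nursing mice are not given in the sources used here. All tumours share the same injected line, so it stands for 1 cell source.

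Prom1 encodes prominin-1 (CD133), a glycoprotein of membrane protrusions on epithelial and progenitor cells. In the pancreas it is found on duct cells, and together with CD44, CD24 and EpCAM it has been used to sort tumour-initiating cells from ductal cancers. High aldehyde dehydrogenase activity, the Wnt-linked receptor LGR5, the microtubule-binding kinase DCLK1 and the duct transcription factor SOX9 are further such marks. The tumours carried the epithelial markers of the injected line, with signals of 5952 to 11119 for Cdh1 (E-cadherin) and of 6801 to 11061 for Krt19 (a duct keratin). None of the 9 markers is specific: CD44 and CD24 are also carried by leukocytes, and DCLK1 and LGR5 are also made by cells other than epithelium.

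Prom1 was high in all 3 lactation tumours and in 1 of the 3 controls, and low in the other two controls. The other 8 markers did not share that order. Cd24a and Epcam lay, like the epithelial genes of these tumours, below their own means in lactation replicate 2 and control replicate 2. Cd24a was lowest in control replicate 3, where the mean of the epithelial genes was also low and Epcam lay above its own mean. Dclk1 and Lgr5 lay highest in the tumour with the most fibroblast and endothelial signal. In limma with Benjamini-Hochberg adjustment over all 11623 genes, 0 of the 8 had an adjusted p under 0.05 (0.0% of all genes), and the lowest adjusted p among them was 0.9998. At an unadjusted p under 0.05 there were 0 of the 8, against 2.27% of all genes. Groups that did not overlap were found for Prom1 alone of the 9, where 6.9% of all genes had them.

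The regions around the start sites of the 3 genes that lead these patterns are shown, to place the genes beside their own sequence. Each is 300 bases, from 250 before to 50 after a RefSeq start in GRCm38.p6, written along the gene's strand. Of the 9 genes, 5 had an entry in the table used (Prom1, Cd44, Aldh1a1, Dclk1 and Epcam). Capitals mark exact matches, on either strand, to the letters TATAAA of a TATA box, CCAAT as bound by the factor NF-Y, GGGCGG of a GC box, TTCNNNGAA of a STAT5 site, ATCAAAG of a TCF/LEF site or AACAAT of a SOX site.
Prom1, chr5:44101687-44101986, minus strand: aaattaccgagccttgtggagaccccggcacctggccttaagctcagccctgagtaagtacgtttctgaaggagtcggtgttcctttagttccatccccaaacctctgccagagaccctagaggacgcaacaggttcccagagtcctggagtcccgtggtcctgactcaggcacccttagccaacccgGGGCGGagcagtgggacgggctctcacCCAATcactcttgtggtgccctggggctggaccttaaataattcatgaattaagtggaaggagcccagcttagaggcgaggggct
Epcam, chr17:87635729-87636028, plus strand: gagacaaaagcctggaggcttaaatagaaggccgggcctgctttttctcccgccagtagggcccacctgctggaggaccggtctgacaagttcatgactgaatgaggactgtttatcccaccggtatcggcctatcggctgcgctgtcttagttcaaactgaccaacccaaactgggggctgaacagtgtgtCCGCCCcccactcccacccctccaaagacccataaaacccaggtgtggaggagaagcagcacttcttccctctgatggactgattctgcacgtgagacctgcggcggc
Dclk1, chr3:55242114-55242413, plus strand: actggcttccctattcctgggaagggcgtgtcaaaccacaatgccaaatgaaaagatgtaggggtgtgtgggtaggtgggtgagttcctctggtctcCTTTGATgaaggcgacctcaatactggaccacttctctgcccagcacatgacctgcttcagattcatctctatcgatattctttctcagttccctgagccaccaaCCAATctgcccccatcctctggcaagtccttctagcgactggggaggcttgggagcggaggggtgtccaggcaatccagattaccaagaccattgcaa
The Prom1 window held 1 CCAAT match and 1 GC box, the Epcam window 1 GC box, and the Dclk1 window 1 CCAAT match and 1 TCF/LEF match. Prom1 and Dclk1 each have a second RefSeq start in the table, not printed, whose window held 0 matches to the 6 motifs. Among 32851 such windows of the mouse genome, 37.4% held a CCAAT match, 35.7% a GC box and 3.73% a TCF/LEF match. A TATA box stood in 13.6%, a SOX match in 10.7% and a STAT5 match in 8.3%, and none of these 3 motifs was found in the windows printed. A match is a match of letters only, and which start the tumours used was not measured.

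Signals are MAS5 values on a linear scale, and differences are of log2(signal + 16), lactation minus control, which understates the change of dim genes. Each difference is taken between group means of the log2 values, so it is not the ratio of the mean signals printed beside it. Prom1 had a signal of 5569, 7594 and 6768 in lactation replicates 1 to 3 and of 5278, 2161 and 2373 in control replicates 1 to 3. The groups did not overlap, but control replicate 1 lay just below the lowest lactation tumour while the other controls lay far below it. The mean signals were 6644 ± 1018 (SD, n = 3) and 3271 ± 1742. The group means of the log2 values were 12.69 and 11.56, a difference of 1.13 (standard error 0.33), or 2.19-fold between geometric means. Groups that do not overlap with lactation higher were found for 3.71% of all genes, and a log2 difference of at least 1 with lactation higher for 0.25%; since these values led to the choice of Prom1, nothing is read from that. Prom1 had 1 probe set, so no second reading of its transcript is given. Prom2, the other prominin gene, had signals from 3.43 to 41.8, below every array's median.

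**Figure D1:**
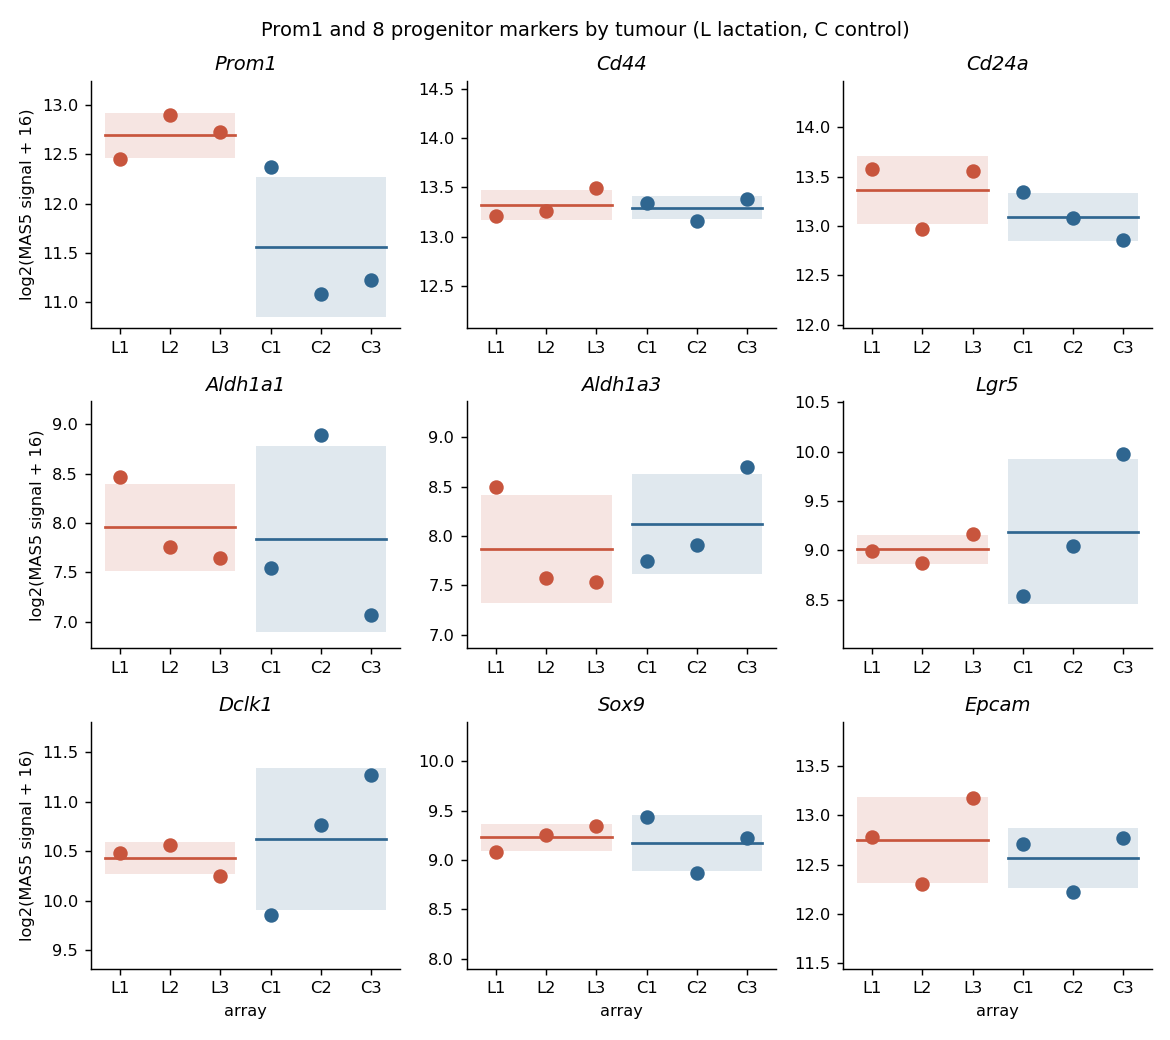
Log2(MAS5 signal + 16) of Prom1 and the 8 other markers on each array, lactation replicates (L1 to L3, red) and control replicates (C1 to C3, blue); lines are group means, shaded bands are 1 SD (n = 3), and all panels span the same log2 range. Only Prom1, whose signals run from 5278 to 2161 in controls and from 5569 to 7594 in lactation, has groups that do not overlap.

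Bulk RNA cannot tell more cells of a type from more transcript per cell. Lactation replicate 2, the tumour with the highest Prom1, also held milk transcripts: the beta-casein gene Csn2 had a signal of 333 there and of 1.96 to 27.0 on the other 5 arrays, and the alpha-casein gene Csn1s1 359 against 2.63 to 13.1. The summed signal of 11 genes of secretory mammary epithelium was 5499 in that tumour, 3185 and 4190 in the other lactation tumours and 3115 to 3612 in controls. 9 of those 11 genes lay below the level filter, and the most abundant, Xdh (xanthine dehydrogenase, also made by other tissues), had 2829, 4047 and 3784 in lactation and 3227, 2860 and 2807 in controls. Lalba, the alpha-lactalbumin gene, lay below the array medians throughout, with 20.2, 57.0 and 12.4 in lactation and 11.1, 7.61 and 6.22 in controls, so its groups did not overlap. In lactation replicates 1 and 3 Csn2 was 3.16 and 1.96, and without lactation replicate 2 the difference of Prom1 was 1.03. The part of mammary tissue in the Prom1 values was not tested. The 4 measured genes of hormone-sensing mammary epithelium summed to 634, 867 and 635 in lactation and to 548, 644 and 776 in controls. Esr1 gave most of each sum, with 495, 650 and 445 in lactation and 430, 462 and 564 in controls. Pgr and Cited1 lay below the level filter.

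Epcam encodes an adhesion molecule of simple epithelia. Its signal was 7016, 5029 and 9208 in lactation and 6651, 4746 and 6976 in controls. The groups overlapped widely, and lactation replicate 2, the highest for Prom1, was the second lowest for Epcam. The log2 difference was 0.19 (standard error 0.24), and it was -0.02 without lactation replicate 3. The second Epcam probe set, with signals from 1027 to 1903, was likewise highest in lactation replicate 3 and lowest in control replicate 2. It did not repeat the low place of lactation replicate 2. That tumour, at 1287, lay above lactation replicate 1 (1259) and control replicate 3 (1246).

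Cd24a encodes a small glycosylated surface protein of epithelium, neutrophils and B cells. It had signals of 12199, 8008 and 12062 in lactation and of 10394, 8627 and 7424 in controls. The groups overlapped because lactation replicate 2 lay below control replicates 1 and 2. The mean signals were 10756 ± 2381 and 8815 ± 1494 (SD, n = 3). The group means of the log2 values, 13.37 and 13.10, differ by 0.27 (standard error 0.19), the largest value among the 8. The unadjusted p in limma was 0.193, and without control replicate 3 the difference was 0.16 while without lactation replicate 2 it was 0.47. All 3 of its probe sets gave a difference between 0.24 and 0.34.

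Both genes were set beside 21 epithelial adhesion and duct keratin genes, Cdh1 and Krt19 among them, whose mean log2 value was 11.36, 11.03 and 11.78 in lactation and 11.30, 10.89 and 11.05 in controls. All 21 were tested and all 21 had a positive difference, where 48.3% of all genes did. Their median was 0.29, beside -0.01 over all genes. None passed the adjusted threshold. Only Ocln and St14 passed the unadjusted one, and of the 21 only St14 had separate groups. The 21 were read on the same 6 tumours, so their shared sign is not 21 independent results. Their mean was highest in lactation replicate 3, and control replicate 1 lay above lactation replicate 2. Of 7 tested genes of skin keratinocytes and hair follicle, another epithelium near these tumours, 5 had a positive difference, with a median of 0.27. Krt5, a basal keratin, had 347, 331 and 838 in lactation and 269, 242 and 147 in controls, with groups that did not overlap. The summed signal of the 13 measured genes of that list was 9746, 7301 and 13254 in lactation and 7654, 6620 and 11170 in controls, and the part of skin in the epithelial values was not tested. The mean of the 21 epithelial genes was then subtracted on each array, an alternative chosen after seeing the data. The difference of Epcam was -0.13 and that of Cd24a -0.04. The difference of Prom1 was 0.82 on that scale. The groups of Prom1 then overlapped, since control replicate 1 (0.18 above the mean of the 6 arrays) lay above lactation replicate 3 (0.06 above it). Relative to its epithelial genes, Prom1 was furthest up in lactation replicate 2, by 0.97, and furthest down in control replicates 2 and 3, by -0.69 and -0.71.

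**Figure D2:**
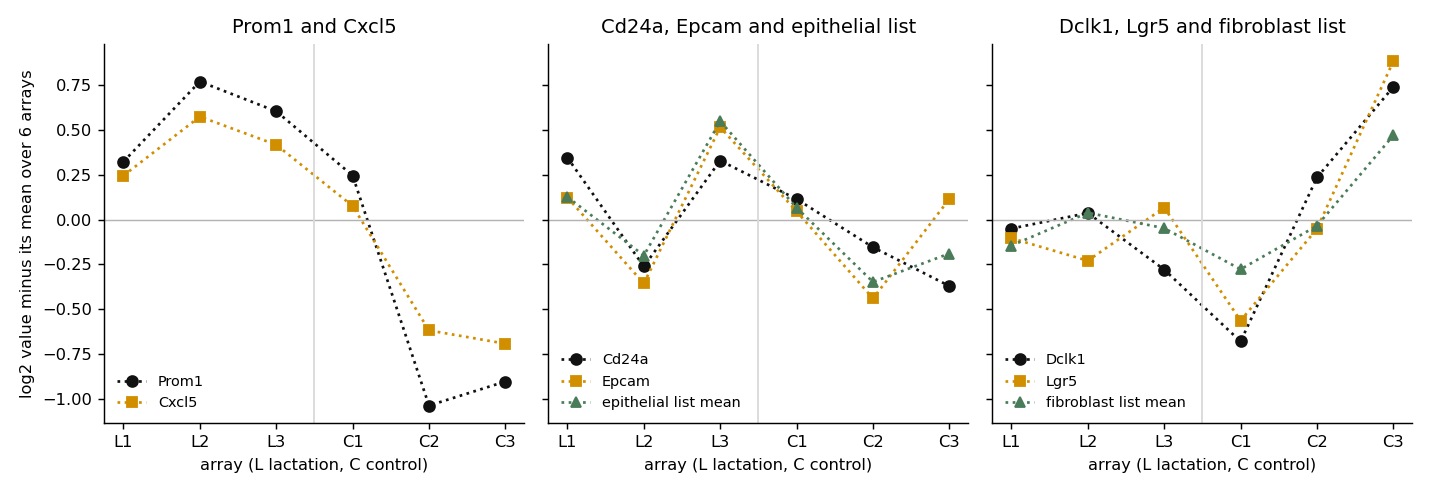
Log2 values minus each gene's own mean over the 6 arrays (L lactation, C control; dotted lines only join the points of a gene or list). Prom1 and Cxcl5 are high on L1 to L3 and lowest on C2 and C3. Cd24a, Epcam and the mean of 21 epithelial genes lie below 0 on L2 and C2, and Cd24a and that mean on C3 as well. Dclk1, Lgr5 and the mean of 13 fibroblast genes are highest on C3 and lowest on C1.

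Cd44 encodes the receptor for hyaluronan, a matrix sugar polymer, and was the steadiest of the set. Its signal was 9479, 9822 and 11512 in lactation and 10336, 9143 and 10664 in controls. The highest array was 1.26 times the lowest, where for Prom1 it was 3.51 times. The log2 difference was 0.03 (standard error 0.10), and the 3 of its 4 probe sets that lay above the array medians gave differences from -0.05 to 0.08. The fourth had signals under 5. Of 9 tested genes of hyaluronan synthesis and CD44 partners, 0 had an adjusted p under 0.05 and 0 an unadjusted one; 3 had a positive difference, and the median was -0.07. The largest was that of the hyaluronan synthase Has2, with means of 181 ± 16.4 in lactation and 247 ± 106 in controls and a difference of -0.35. Leukocytes also carry CD44: the summed signal of 17 leukocyte genes was 72009, 71008 and 51346 in lactation and 67374, 76858 and 71337 in controls. It was lowest in lactation replicate 3, where Cd44 was highest.

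Sox9, which encodes a transcription factor of duct and progenitor cells, had signals of 525, 595 and 635 in lactation and of 674, 450 and 581 in controls. On this probe set the highest and the lowest tumour were both controls. The log2 difference was 0.06 (standard error 0.16), and -0.10 without control replicate 2. It was -0.04 with the mean of all 3 probe sets, of which 1 lay below the array medians on every array. The remaining probe set had another order, with its highest signal in lactation replicate 3 (385) and its lowest in lactation replicate 1 (273). Its difference was 0.09.

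Aldh1a1 and Aldh1a3 encode cytosolic enzymes that oxidise retinal to retinoic acid and give the dehydrogenase activity used to sort progenitor cells. Aldh1a1 had signals of 337, 201 and 184 in lactation and of 171, 457 and 119 in controls, so the highest and lowest tumours were again controls. Its mean signal was 240 ± 83.8 in lactation and 249 ± 183 in controls, while the difference of log2 values was positive, at 0.12 (standard error 0.47). The sign changed to -0.26 without control replicate 3, and the value was 0.65 without control replicate 2. The 2 tumours highest for Aldh1a1, lactation replicate 1 and control replicate 2, were also those with the most skeletal muscle signal: the summed signal of 10 muscle genes was 86738 and 85422 there and 10977 to 34621 in the others. All 10 muscle genes passed the level filter, and none was near 0. The part of muscle in the Aldh1a1 values was not tested.

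Aldh1a3 had signals of 345, 175 and 169 in lactation and of 199, 225 and 399 in controls. Lactation replicate 1 and control replicate 3 stood above the rest, which lay between 169 and 225. The log2 difference was -0.25 (standard error 0.35), and it was 0.04 without control replicate 3. Its other 2 probe sets lay below the array medians on all arrays, with differences of -0.49 and -0.92, the second of these from groups that did not overlap but lay at signals of 8.85 to 69.7. Of 13 other aldehyde dehydrogenase genes tested, 5 had a positive difference and 0 passed at an adjusted or unadjusted p under 0.05. The largest differences were those of Aldh3a1 and Aldh1l2, both at -0.44. Of 10 tested genes of retinoid synthesis and response, 6 were positive and again 0 passed either threshold. Crabp1, a retinoic acid binding protein, had the largest difference, 0.51, with signals from 999 to 1860 in lactation and of 731, 525 and 2868 in controls.

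Dclk1 and Lgr5 were lowest in control replicate 1, where Prom1 was highest among the controls, and highest in control replicate 3. Dclk1, the doublecortin-like kinase of tuft cells, neurons and some stromal cells, had signals of 1412, 1500 and 1202 in lactation and of 907, 1723 and 2451 in controls. All 3 lactation tumours lay inside the range of the controls, with control replicate 1 lowest and control replicate 3 highest. The log2 difference was -0.20 (standard error 0.33), and leaving out control replicate 3 gave 0.13, while leaving out control replicate 1 gave -0.58. Dclk1 had 9 probe sets, of which 6 lay above the array medians on at least 3 arrays. All 6 were highest in control replicate 3 and 5 of the 6 were lowest in control replicate 1. 5 of those 6 gave a negative difference between the groups.

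**Figure D3:**
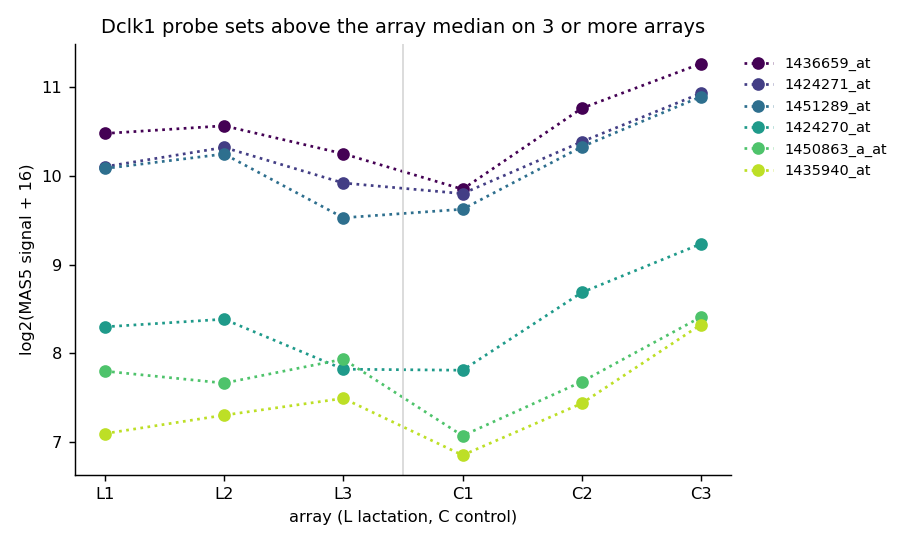
Log2(MAS5 signal + 16) of the 6 Dclk1 probe sets at or above the array median on at least 3 arrays, by array (L lactation, C control; dotted lines only join the points of a probe set). Each is highest on C3, and 5 of the 6 are lowest on C1.

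Lgr5, the receptor for R-spondins that marks Wnt-responsive stem cells in gut and hair follicle, had signals of 494, 452 and 558 in lactation and of 355, 513 and 994 in controls. Control replicate 3 stood well above the other 5 tumours, which lay between 355 and 558. The log2 difference was -0.18 (standard error 0.34), and 0.22 without control replicate 3. A second Lgr5 probe set had signals from 9.72 to 39.8, below the array medians. Of 15 measured genes of the Wnt target and R-spondin list, 7 were tested, none of them an R-spondin gene. 6 of the 7 had a positive difference, where 48.3% of all genes did. Their median was 0.08, and 0 passed at an adjusted or unadjusted p under 0.05. Rspo1, Rspo2, Rspo3 and Rspo4 lay below the level filter, with differences of -0.32, 0.11, -0.75 and 0.15. So did Sp5 (-0.52), Lef1 (-0.14), Ascl2 (-0.10) and Nkd1 (0.26).

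The same tumours stood at the extremes of stromal signal. The summed signal of 13 fibroblast genes was 116536, 131006 and 132259 in lactation and 111656, 123955 and 165413 in controls, and that of 11 endothelial genes 5455, 5696 and 5227 in lactation and 4715, 6233 and 7625 in controls. Both sums were lowest in control replicate 1 and highest in control replicate 3, as Dclk1 and Lgr5 were. All 13 fibroblast and all 11 endothelial genes passed the level filter. The mean of the fibroblast list was then subtracted on each array, again an alternative chosen after seeing the data. The difference of Dclk1 was -0.09 in place of -0.20 and that of Lgr5 -0.07 in place of -0.18. Around their means over the 6 arrays, Dclk1 and Lgr5 were still lowest in control replicate 1, at -0.40 and -0.285. They were still highest in control replicate 3, at 0.27 and 0.41, with control replicate 2 also at 0.27 for Dclk1. The difference of Prom1 was 1.23. The groups of Prom1 overlapped on this scale too, with control replicate 1 at 0.52 and lactation replicate 1 at 0.47 above the mean of the 6 arrays. The part of stromal cells in these values was not tested. Tuft cells, the best known epithelial source of DCLK1, had few markers in view: of 9 measured, 7 lay below the level filter, among them Pou2f3, the factor that specifies them, with signals from 36.9 to 83.6. The 2 that passed, Alox5 and Alox5ap, are also leukocyte genes and had differences of -0.09 and -0.23.

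**Figure D4:**
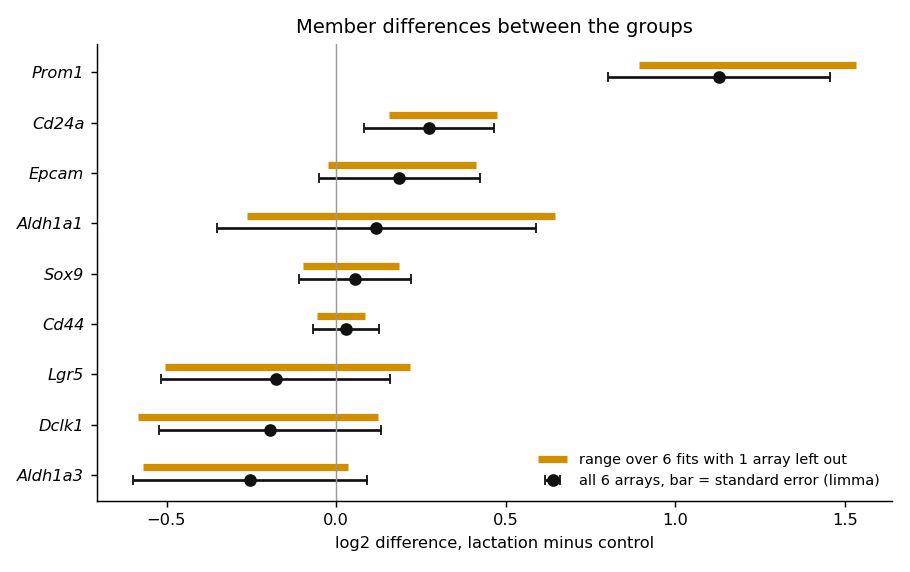
Log2 difference of each marker between lactation and control tumours (points, with the standard error from limma as bars, 3 against 3 arrays) and its range over the 6 fits that each leave out 1 array (orange). The range of Prom1 runs from 0.89 to 1.53, that of Cd24a from 0.16 to 0.47, and those of the other 7 markers include 0. Since the groups of Prom1 do not overlap, its range could not include 0.

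Whether Prom1 moved with the other markers was to be asked by correlation over the 6 arrays. Its values lie in 2 sets, 4 tumours between 5278 and 7594 and 2 tumours at 2161 and 2373, with 63.6% of the log2 range empty between them, so no coefficient between Prom1 and another marker is given and their relation was not tested. Side by side, Prom1 was highest in lactation replicate 2, a tumour that was highest for none of the other 8. Among the other markers, 7 whose values did not split in this way gave 21 pairs, each tested by exact permutation of the 6 arrays, two-sided. Aldh1a3 was left out, with a gap of 50.1% of its log2 range, barely over the cut of 50%. None of the 21 had a Benjamini-Hochberg adjusted p under 0.05, with Pearson's r or Spearman's rho, and 3 had an unadjusted p under 0.05 for r. With 6 arrays, even a perfect rho in a single pair could not pass the adjusted threshold. The absence of calls therefore does not show that the markers vary apart. Lgr5 and Dclk1 had an r of 0.87 (exact permutation p = 0.0458, adjusted 0.321) and a rho of 0.60 (p = 0.242, adjusted 0.725). The r was -0.49 without the 2 tumours farthest from the median of Lgr5, so the relation rests on control replicates 1 and 3. Cd44 and Epcam had an r of 0.82 (exact permutation p = 0.0472, adjusted 0.321) and a rho of 0.66 (p = 0.175, adjusted 0.613). Their r was 0.26 without the 2 tumours farthest from the median of Cd44. Aldh1a1 and Sox9 had an r of -0.81 (exact permutation p = 0.0486, adjusted 0.321) and a rho of -0.66 (p = 0.175, adjusted 0.613). Their r was 0.41 without the 2 tumours farthest from the median of Aldh1a1. The strongest rho, -0.83, was that of Cd44 and Aldh1a1 (exact permutation p = 0.0583, adjusted 0.613), whose r was -0.78 (p = 0.0694, adjusted 0.321) and -0.96 without the 2 tumours farthest from the median of Cd44.

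The genes whose pattern was most like that of Prom1 were found by ranking 11622 other tested genes by Pearson's r over the 6 arrays. This is a description with no test, it reflects mainly whether a gene splits the tumours into the same 2 sets, and 0.981% of the genes had an r over 0.9. The closest was Cxcl5, a chemokine that attracts neutrophils, with an r of 0.991. Its signal was 5413, 6802 and 6100 in lactation and 4813, 2970 and 2821 in controls, so the order within the lactation group was that of Prom1 and the groups did not overlap. Its mean was 6105 ± 695 against 3535 ± 1109 (SD, n = 3). The next were Tnfaip2 (a TNF-induced gene, r of 0.984), Prpf38b (a splicing factor, 0.982), Rnf135 (a ubiquitin ligase of RNA sensing, 0.981), Gas2 (a cytoskeletal protein, 0.981), Sh3bp4 (0.980), Mllt6 (0.979) and Zfp653 (0.978). Gas2 had means of 444 ± 50.8 and 268 ± 59.9, and its log2 values differed by 0.71 on average. These genes were picked for likeness to Prom1, which was itself chosen for its group difference. Nothing is therefore read from their order or from their group differences. The most opposite were Scfd2 (r of -0.994), Tbck (-0.983) and Zbtb17 (-0.982), whose differences were small, from -0.25 to -0.11. None of the 8 markers stood among these 11 of 11622 ranked genes, a list too short for their absence to say anything of their relation to Prom1.

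Further genes of progenitor and duct biology were read from lists chosen with earlier results known. Of 27 other stem and progenitor markers tested, 14 had a positive difference, the median was 0.01, and 0 passed the adjusted threshold. At an unadjusted p under 0.05 there was 1 higher, Msi2, an RNA-binding protein of stem cells, with 1742 ± 169 against 1302 ± 193. The 2 lower were Lrig1, a feedback inhibitor of growth factor receptors, with 1206 ± 154 against 1559 ± 198, and Cxcr4, a chemokine receptor, with 1100 ± 101 against 1514 ± 337. Lrig1 falls outside the rule for named genes and was chosen after its values were seen. The share of all genes at that threshold was 1.51% higher and 0.766% lower. Of 17 measured duct and endoderm regulators, 10 were tested. 9 of the 10 had a positive difference, with a median of 0.34, and 0 passed the adjusted threshold. They were read on the same 6 tumours, so their signs are not independent results. Among those below the level filter, Foxa3 was positive (0.22). Onecut1, Ptf1a, Gata4, Gata6, Nkx6-1 and Nr5a2 were negative, from -0.41 to -0.04. The largest differences among the tested genes were those of Hnf4a, a factor of gut and liver epithelium (1.02), Grhl2, a factor of epithelial junction genes (-0.69), and Onecut2 (0.62). Grhl2 was the 1 tested gene that was lower, with 41.4, 203 and 386 in lactation and 301, 185 and 318 in controls, and the groups overlapped. 3 were higher at an unadjusted p under 0.05 with groups that did not overlap. These were Hnf4a (502 ± 148 against 259 ± 132), Foxa2, a pioneer factor of endoderm (783 ± 123 against 542 ± 31.9), and Ehf, an epithelial ETS factor (546 ± 61.2 against 369 ± 75.3). Foxa2 and Ehf were likewise chosen after their values were seen. Groups that did not overlap with lactation higher were found for 3.71% of all genes.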

How the data were processed

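Total RNA from 6 tumours was labelled with biotin as cRNA for Affymetrix arrays, per the labels' protocols. The deposited intensity values were the authors' MAS5 signals, as the submitters' processing notes name the tool; its version and a genome build are not given in the sources used here. They are linear and already scaled, since each array's mean was 500.0 once the top and bottom 2% were trimmed. Median signals were 99.3 to 111 and the number of arrays limits the precision.

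Of 45101 probe sets, 34958 had 1 gene symbol in the platform annotation, 932 several and 9211 none; only the first were used. Values were log2(signal + 16), each gene by its probe set of highest mean, kept where at least 3 arrays lay at or above the array median. Groups were compared in limma 3.58.1 in R 4.3.3, with group as the model's sole factor and eBayes moderation along an intensity trend, with Benjamini-Hochberg adjustment at 0.05. In 5 tables of simulated data of 11623 genes, with 200 changed and noise independent between genes, the fit recovered 69.2% of 2-fold and 91.4% of 4-fold changes. It made 7.0 false calls per table. The shares are averages over genes in tables that hold 200 true changes, so they do not give the power for any single marker. Other steps used Python 3.11.15, with numpy 2.4.6 for the exact tests. An array's list mean is over all measured genes of the list. Values were called split into 2 sets where a gap with at least 2 arrays on each side took over 50% of the log2 range.

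The members and lists were chosen with earlier results of these data known. The 9 members are named whatever their values, up to 3 genes of each list by size of difference, and the 8 most and 3 least like Prom1. List genes that no single-gene probe set names were not analysed here. Replicates are labelled as biological, and p-values measure only the spread between these tumours. Alternatives were added constants of 1 and 64, quantile normalization, median centring, the mean of probe sets, other filters, fits with no trend, robust eBayes or array weights, leaving out each array, and a block for the replicate number.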

Additional observations from a re-analysis of the deposited data

How the results depend on the processing

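Over 17 alternative settings the difference of Prom1 ran from 0.89 to 1.53. Its groups do not overlap, so leaving out 1 array could not change its sign, and nothing is read from that. No gene and none of the 8 other markers had an adjusted p under 0.05 in limma over these settings. The lowest adjusted p of those 8 over these settings was 0.871. Aldh1a1 and Aldh1a3 could not be fitted with the filter at the 70th percentile, which they did not pass. With arrays centred on their medians the difference of Cd44 was -0.016 (all genes moved by -0.05), with array weights that of Aldh1a1 was -0.20, and with the mean of probe sets that of Sox9 was -0.04. Relative to the epithelial list the differences of Cd44, Cd24a, Aldh1a1, Sox9 and Epcam were -0.285, -0.041, -0.196, -0.259 and -0.128. With 1 array left out, differences ran from -0.055 to 0.085 for Cd44, from -0.26 to 0.65 for Aldh1a1, from -0.568 to 0.035 for Aldh1a3, from -0.50 to 0.22 for Lgr5, from -0.58 to 0.13 for Dclk1, from -0.10 to 0.19 for Sox9 and from -0.024 to 0.412 for Epcam. The median of the 9 differences, 0.06 with all arrays, ran from -0.037 to 0.125, and the count of markers whose groups did not overlap from 1 to 3, where fewer arrays make overlap rarer. The replicate number did not pair the tumours, with correlations of deviations of 0.143, -0.083 and 0.267 between same-numbered arrays; with the replicate block 0 genes had an adjusted p under 0.05, 289 had an unadjusted p under 0.05 in place of 264, and the differences were unchanged. Correlations with Prom1 were not run under the alternatives, for the reason given above. The pairs of markers gave 0 calls under each scaling. The cause of the sign changes was not tested.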
